A study of Mus musculus with 18 samples.

Results

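The genes described here are 10 that encode antioxidant enzymes or belong to the NRF2 pathway: Nfe2l2, Keap1, Nqo1, Hmox1, Gclc, Gclm, Sod1, Sod2, Sod3 and Cat. They were taken from a list of names, and all 10 were found among the 12911 genes obtained by summing the deposited transcript values with GENCODE M21. All 10 also passed the filter on low values, which kept the 11703 genes whose mean reached 1 FPKM in some group. FPKM counts sequenced fragments relative to transcript length and to library depth, so it can be compared between genes. The files do not name this unit, which was inferred from the values.

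Cardiac tissue was collected from wild-type mice, of the strain C57BL/6 by the series title, after 28 days of treatment. The saline group received no drug. The AngII group received angiotensin II, a peptide hormone that raises blood pressure, at 500 ng per kg per min, and the AngII+ETH group received the same infusion with ethoxysanguinarine, a plant benzophenanthridine alkaloid, at 10 mg per kg per day. Total RNA from which ribosomal RNA had been removed was sequenced in 6 libraries per group. Which part of the heart was taken, and whether each library came from a different animal, is not stated in the labels, and the p-values therefore describe the spread between libraries alone.

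NRF2, the protein of Nfe2l2, is a transcription factor that KEAP1 holds in the cytoplasm and passes to a cullin ubiquitin ligase for degradation. Oxidants and electrophiles modify KEAP1, NRF2 then escapes degradation, pairs with small MAF proteins and binds antioxidant response elements in genes for glutathione synthesis, quinone reduction and heme breakdown. Its activity is set largely at the protein level, which RNA levels do not show. Superoxide dismutases turn superoxide into hydrogen peroxide in the cytosol (SOD1), the mitochondrial matrix (SOD2) and the extracellular space (SOD3), and catalase, from Cat, breaks hydrogen peroxide down in peroxisomes.

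The core letters of the antioxidant response element, TGACNNNGC, were searched on both strands of RefSeq promoter windows of GRCm38.p6, each of 300 bases (250 before and 50 after the start of the gene). Windows were at hand for 7 of the 10 genes, and 3 of them, Nfe2l2, Gclm and Sod1, held 1 match each. Those of Cat, Keap1, Nqo1 and Sod2 held none, which says only that these letters are not in these windows. Of all 32851 windows of this length 12.4% held a match. The AP-1 letters TGACTCA, which can overlap the element, were in 5.2% of all windows and in none of the 7. The matching windows are printed to show where these core letters lie in each, with the match in capitals. They lie at chr2:75704614-75704913 on the minus strand (Nfe2l2), chr3:122245307-122245606 on the plus strand (Gclm) and chr16:90220512-90220811 on the plus strand (Sod1), and each is read along the strand of its gene.
Nfe2l2: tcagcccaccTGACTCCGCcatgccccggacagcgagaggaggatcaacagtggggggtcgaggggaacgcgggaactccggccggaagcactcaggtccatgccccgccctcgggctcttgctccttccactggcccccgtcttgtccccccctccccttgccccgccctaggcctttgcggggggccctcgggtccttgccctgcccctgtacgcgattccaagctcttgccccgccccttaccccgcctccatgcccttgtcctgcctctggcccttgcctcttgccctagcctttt
Gclm: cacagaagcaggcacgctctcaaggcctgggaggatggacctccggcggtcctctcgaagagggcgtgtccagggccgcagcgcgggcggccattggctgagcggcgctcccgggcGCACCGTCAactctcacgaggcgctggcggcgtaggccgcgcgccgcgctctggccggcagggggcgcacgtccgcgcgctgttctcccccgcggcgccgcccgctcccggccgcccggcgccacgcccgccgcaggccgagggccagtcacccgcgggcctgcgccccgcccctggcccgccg
Sod1: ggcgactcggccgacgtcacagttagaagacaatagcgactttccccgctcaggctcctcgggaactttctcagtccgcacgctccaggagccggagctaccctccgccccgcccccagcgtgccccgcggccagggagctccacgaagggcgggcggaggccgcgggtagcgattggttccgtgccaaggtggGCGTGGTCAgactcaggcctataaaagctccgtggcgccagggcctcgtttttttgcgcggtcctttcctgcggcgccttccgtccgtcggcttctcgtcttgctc
In Nfe2l2 the match reads TGACTCCGC along the gene and begins 240 bases before the start. In Gclm it reads TGACGGTGC on the opposite strand, with its leftmost base 134 bases before the start, and in Sod1 it reads TGACCACGC on the opposite strand, 56 bases before the start. A match is a description of the sequence, not a site shown to be bound.

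The libraries differed in which tissue they held, and this touches every result below. The 5 cardiomyocyte markers Tnnt2, Tnni3, Actc1, Ryr2 and Myh6 were above 0 in all 18 libraries, with a summed level of 2989 to 9671 FPKM in saline, 8338 to 10286 in AngII and 4182 to 10174 in AngII+ETH. Saline replicates 4 and 6 had the lowest sums of their group, 2989 and 3906 FPKM. The mean log2 level of these markers was 0.62 higher in AngII than in saline (exact 2-sided permutation p = 0.00433, adjusted p = 0.117 over 27 marker tests). In AngII+ETH it was 0.42 higher than in saline (exact permutation p = 0.0325, adjusted p = 0.219). The level of 5 endothelial markers was 0.24 higher in AngII than in saline (exact permutation p = 0.0260, adjusted p = 0.219). The part of these differences in the results below was not tested. The atrial light chain gene Myl7 was at 0 in 1 library of each group: replicate 5 of saline, replicate 3 of AngII and replicate 4 of AngII+ETH. The ventricular light chain gene Myl2 was at 3.77 FPKM in replicate 6 of saline and at 3.37 in replicate 5 of AngII. A chamber marker level was therefore computed per library as the mean log2 level of Myl7, Sln and Myl4 minus that of Myl2 and Myl3, and it ran from -12.1 to 7.15. Adipoq, an adipocyte hormone, was 105.5 FPKM in saline replicate 4 and 168 in saline replicate 6, and at most 20.4 elsewhere. The summed level of the 5 adipocyte markers found of 7 listed was 0.538 to 1130 FPKM in saline, 0.173 to 24.0 in AngII and 0 to 256 in AngII+ETH. Their mean log2 level differed by -2.96 in AngII against saline (exact 2-sided permutation p = 0.0238, adjusted p = 0.219 over the same 27 tests). A fit that holds this level can therefore also take out a difference between treatments. AngII+ETH files also hold another list of transcripts than the other files, so a difference in processing cannot be told apart from ethoxysanguinarine. In bulk tissue, fewer cells of a type and less RNA per cell cannot be told apart either.

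None of the 10 genes differed between treatment groups beyond the spread of the libraries. With limma fitted to log2(FPKM + 1) over all genes, 0 of 10 passed a Benjamini-Hochberg adjusted p of 0.05 in AngII against saline, where 0.00854% of all genes did. The count was 0 of 10 in AngII+ETH against AngII, against 0% of all genes, and in AngII+ETH against saline 0 of 10, against 0.00854%. With an unadjusted p under 0.05 the counts for the 10 genes were also 0, 0 and 0, where 9.06%, 1.91% and 7.51% of all genes had one. In no comparison did the libraries of 1 group all lie above or below those of the other for any of the 10, as they did for 0.359%, 0.0513% and 0.607% of all genes. The median log2 fold change of the 10 was -0.17 in AngII against saline, 0.042 in AngII+ETH against AngII and -0.092 in AngII+ETH against saline, with -0.057, 0.020 and -0.034 over all genes. In AngII against saline 8 of 10 fold changes were below 0, as were 60.8% of all genes, and 2 were above 0, as were 39.2%. The split was 7 above and 3 below in AngII+ETH against AngII (56.8% and 43.2% of all genes) and 2 above and 8 below in AngII+ETH against saline (43.7% and 56.3%). Without saline replicates 4 and 6, the libraries with Adipoq above 100 FPKM, the AngII against saline comparison had 6 above and 4 below 0 with a median of 0.018, and AngII+ETH against saline had 7 above and 3 below with a median of 0.021. Of all genes in that fit 47.1% and 42.2% were below 0. The comparisons share libraries, so their values are given side by side and not set against each other.

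**Figure D1:**
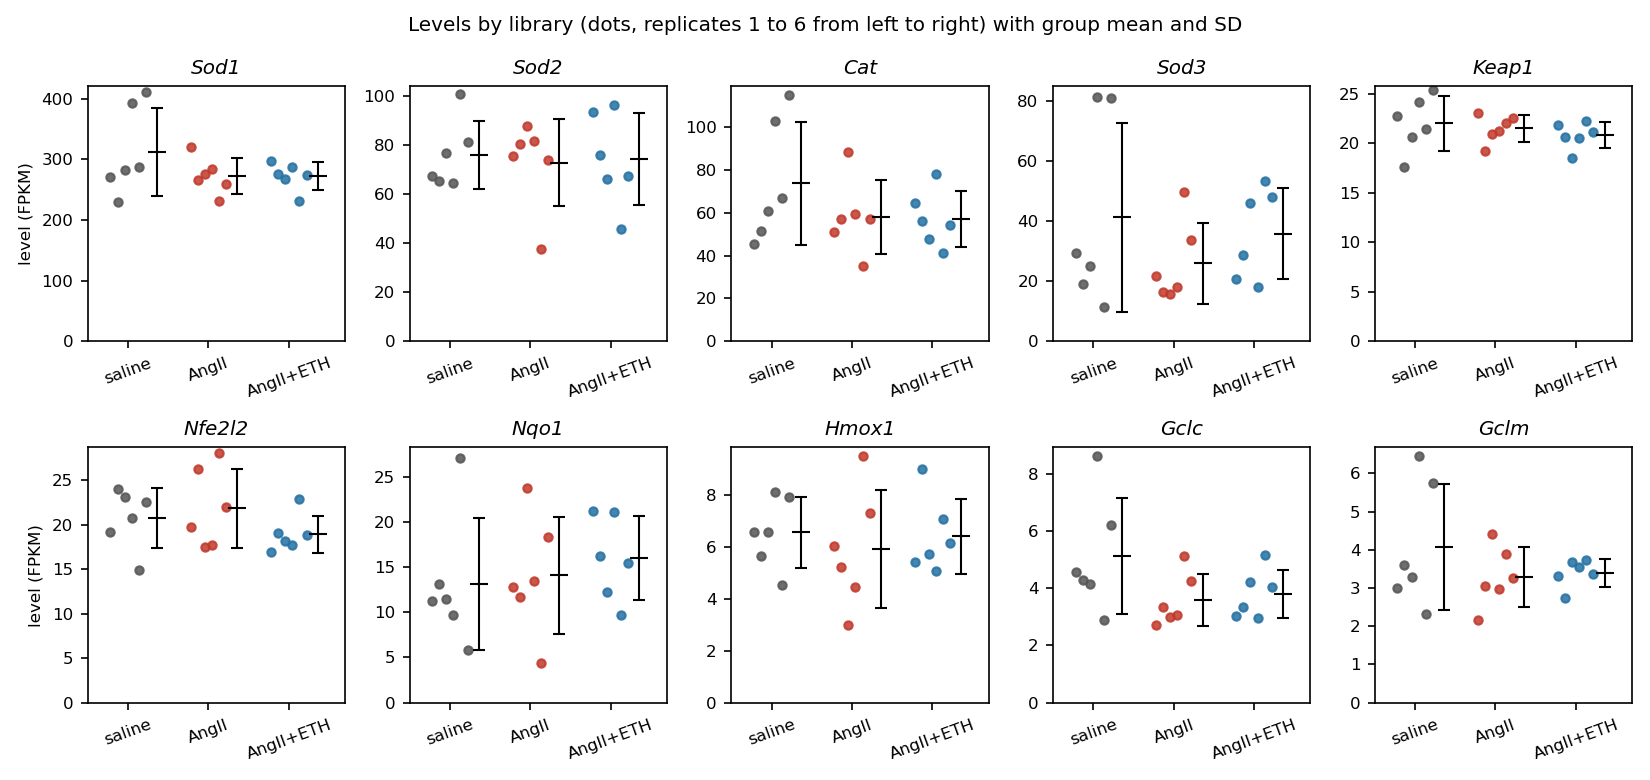
Level of each gene in FPKM (vertical axis, from 0) in the 6 libraries of the saline, AngII and AngII+ETH groups, with the group mean and SD as black bars. The groups overlap for all 10 genes, and saline replicates 4 and 6 stand at the top for Sod1, Cat, Sod3, Gclc and Gclm.

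The levels spanned a wide range. Averaged over the 18 libraries, Sod1 stood highest at 286 ± 48.4 FPKM (SD, n = 18), above Sod2 in 18 of 18 libraries. Sod2 (74.3 ± 16.0) and Cat (62.9 ± 21.0) followed and differed by less than their spread, with Sod2 above Cat in 15 libraries. Sod3 came next at 34.4 ± 21.4, above Keap1 in 11 libraries only. Keap1 (21.5 ± 1.88) and Nfe2l2 (20.5 ± 3.45) were also closer than their spread, and Nqo1 (14.4 ± 6.00) was below Nfe2l2 in 14 libraries. Hmox1 was at 6.30 ± 1.67, and the subunit genes Gclc (4.16 ± 1.47) and Gclm (3.59 ± 1.07) were lowest and differed by less than their spread. If the values are FPKM, the fewest fragments behind any of these levels in a library were about 349, for Hmox1.

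The genes also differed in how much they varied. Keap1 had a coefficient of variation of 8.78% over the 18 libraries, lower than all but 2.29% of the genes tested. The coefficient was 16.8% for Nfe2l2 and 16.9% for Sod1, against a median of 27.4% over all genes. At the other end Sod3 had 62.3%, with a 7.13-fold range, and Nqo1 41.7%, with a 6.13-fold range. The NRF2 regulator pair and the cytosolic dismutase were thus the steadiest of the 10, and Sod3 and Nqo1 the least steady.

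Nfe2l2, the gene of NRF2 itself, was between 14.9 and 24.0 FPKM in saline (median 21.7), between 17.5 and 28.0 in AngII (median 20.9) and between 17.0 and 22.9 in AngII+ETH (median 18.5). The groups overlapped throughout. Its log2 fold change was 0.067 (SE 0.132) in AngII against saline, -0.18 (SE 0.132) in AngII+ETH against AngII and -0.11 (SE 0.132) in AngII+ETH against saline, with limma adjusted p of 0.907, 1 and 0.850. The 95% interval for AngII+ETH against AngII ran from -0.46 to 0.097.

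Keap1, the inhibitor that senses electrophiles, was between 17.6 and 25.4 FPKM in saline (median 22.1), 19.2 and 23.1 in AngII (median 21.6) and 18.6 and 22.2 in AngII+ETH (median 20.9). Its 3 log2 fold changes lay between -0.070 and -0.025 (SE 0.0856), and their 95% intervals, from -0.25 at the lowest to 0.15 at the highest, were the narrowest of the 10. The value for AngII against saline, -0.025, turned to 0.031 with median-of-ratios scaling and 0.027 with quantile normalization. The sum varied less than its parts. Keap1 had 4 coding transcripts in the files, and Keap1-205 held 18.9 to 51.6% of the gene's level by library, Keap1-201 13.0 to 53.9%, Keap1-202 17.1 to 38.0% and Keap1-204 1.4 to 14.4%. How the authors' quantification divided reads among these overlapping transcripts is not known here.

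Nqo1, a quinone reductase and a standard readout of NRF2 activity, was between 5.82 and 27.1 FPKM in saline (median 11.4). It was between 4.42 and 23.7 in AngII (median 13.1) and between 9.73 and 21.2 in AngII+ETH (median 15.9). The highest library in saline (replicate 5) and in AngII (replicate 3) was in each case the one where Myl7 was listed at 0, and the lowest (replicates 6 and 5) the one with Myl2 under 10 FPKM. The log2 fold changes were 0.091, 0.27 and 0.36 (SE 0.337 each), in the order of comparisons used for Nfe2l2, with limma adjusted p of 0.950, 1 and 0.815. The 95% interval of the last ran from -0.35 to 1.07. The first and the last were -0.20 and 0.067 without saline replicates 4 and 6.

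Hmox1, inducible heme oxygenase, which degrades heme and is abundant in macrophages that clear red blood cells, was between 4.53 and 8.13 FPKM in saline (median 6.58). It was between 2.99 and 9.52 in AngII (median 5.63) and between 5.08 and 9.02 in AngII+ETH (median 5.93). In every group the lowest library was the one with Myl7 at 0. The log2 fold changes were -0.17, 0.14 and -0.031 (SE 0.198) in the same order of comparisons, with limma adjusted p of 0.821, 1 and 0.974. The last was at 0.0034 with median-of-ratios scaling and at 0.11 without saline replicates 4 and 6. All 10 listed macrophage markers were found, and their summed level was 281 to 626 FPKM in saline, 276 to 467 in AngII and 364 to 670 in AngII+ETH. Macrophage marker sums were likewise lowest, in each group, in the library with Myl7 at 0, as were fibroblast marker sums (355, 452 and 421 FPKM). The highest library was the same for Hmox1 and macrophage markers in AngII (replicate 5) and AngII+ETH (replicate 2). In saline it was not. Replicates 4 and 6 had the highest Hmox1 with macrophage sums of 456 and 409 FPKM, below 619 and 626 in replicates 1 and 3. The part of macrophages in the Hmox1 levels was not tested.

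Gclc encodes the catalytic subunit and Gclm the modifier subunit of glutamate-cysteine ligase, the rate-limiting enzyme of glutathione synthesis. Gclc was between 2.87 and 8.61 FPKM in saline (median 4.42), 2.72 and 5.12 in AngII (median 3.21) and 2.96 and 5.14 in AngII+ETH (median 3.69). Saline replicates 4 and 6 held the highest levels, 8.61 and 6.22 FPKM. The log2 fold change in AngII against saline was -0.38 (SE 0.190, limma adjusted p = 0.582), the smallest p of the 10 in that comparison. It was -0.12 (SE 0.166) without saline replicates 4 and 6, and -0.14 (SE 0.184) once the chamber and adipocyte levels were in the fit. Gclc was at 0.068 in AngII+ETH against AngII, and at -0.31 in AngII+ETH against saline (SE 0.190). The latter was -0.055 without saline replicates 4 and 6 and -0.12 with both marker levels in the fit.

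Gclm was between 2.31 and 6.46 FPKM in saline (median 3.45), 2.17 and 4.42 in AngII (median 3.15) and 2.74 and 3.74 in AngII+ETH (median 3.46). Here too saline replicates 4 and 6 were the highest, at 6.46 and 5.75 FPKM. The log2 fold changes were -0.20, 0.050 and -0.15 (SE 0.178), with limma adjusted p of 0.772, 1 and 0.853. Without saline replicates 4 and 6 the value for AngII against saline was 0.074 and that for AngII+ETH against saline 0.12, so the sign of both rested on these libraries.

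Sod1, the copper-zinc dismutase of the cytosol, was between 229 and 412 FPKM in saline (median 285), 231 and 320.1 in AngII (median 271) and 231 and 297 in AngII+ETH (median 275). The retained-intron transcript Sod1-202 made up 0.357 to 0.949% of this level. The 4 saline libraries other than replicates 4 (393 FPKM) and 6 (412 FPKM) were at 229 to 287.5, below the highest library of each infused group. The log2 fold change was -0.17 (SE 0.132) in AngII against saline and again in AngII+ETH against saline, with limma adjusted p of 0.729 and 0.781. Without those saline libraries both values were at 0.025. It was -0.00015 in AngII+ETH against AngII (95% interval -0.28 to 0.28).

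Sod2, the manganese dismutase of the mitochondrial matrix, was between 64.5 and 101 FPKM in saline (median 72.0), 37.7 and 87.7 in AngII (median 77.8) and 45.7 and 96.2 in AngII+ETH (median 71.7). AngII replicate 5, the infused library with Myl2 under 10 FPKM, lay at 37.7 FPKM while the other AngII libraries were at 73.9 to 87.7. The log2 fold changes were -0.091, 0.034 and -0.057 (SE 0.203), with limma adjusted p of 0.916, 1 and 0.953. Without AngII replicate 5 the value for AngII against saline was 0.085.

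Sod3, the secreted dismutase, which vascular smooth muscle cells are known to make, was the most variable of the 10. It was between 11.4 and 81.5 FPKM in saline (median 27.2), 15.9 and 49.7 in AngII (median 19.8) and 18.2 and 53.5 in AngII+ETH (median 37.3). Saline replicates 4 and 6 stood at 81.5 and 81.2 FPKM, and the other saline libraries at 11.4 to 29.3. The log2 fold changes were -0.43, 0.47 and 0.035 (SE 0.443), with 95% intervals of -1.36 to 0.50, -0.47 to 1.40 and -0.90 to 0.97. Leaving out saline replicates 4 and 6 put the first at 0.22 (SE 0.373) and the third at 0.69 (SE 0.373, limma adjusted p = 0.850). All 5 smooth muscle markers listed (Myh11, Acta2, Tagln, Cnn1 and Smtn) were found, and their summed level was 1420 and 1198 FPKM in saline replicates 4 and 6 and 127 to 171 in the other saline libraries. It was 142 to 222 FPKM in AngII and 163 to 934 in AngII+ETH, where replicates 3, 5 and 6 had both the 3 highest sums and the 3 highest Sod3 levels. In AngII, replicate 5 was highest in both, but replicate 6 had the lowest sum and the second highest Sod3 level, 33.9 FPKM. The markers did not rise together in AngII replicate 5. Tagln was 104.8 FPKM there and 21.2 to 51.9 in the other AngII libraries. Acta2 (62.4 FPKM) and Myh11 (9.35) were not the highest of the group, with up to 110.7 and 12.9 in other AngII libraries. The summed fibroblast markers were highest in AngII replicates 5 and 6 (1430 and 1065 FPKM) and in AngII+ETH replicates 3, 5 and 6 (1394, 1782 and 1386). In saline they were 1265 FPKM in replicate 4, but replicate 6 (1001) lay below replicate 2 (1071). The parts of smooth muscle and of fibroblasts in the Sod3 levels were not tested.

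Cat was between 45.2 and 115 FPKM in saline (median 63.7), 35.0 and 88.3 in AngII (median 56.9) and 41.3 and 78.2 in AngII+ETH (median 55.4). The highest levels were again those of saline replicates 6 (115 FPKM) and 4 (103 FPKM). The highest infused libraries, AngII replicate 3 and AngII+ETH replicate 4, were those with Myl7 at 0. The log2 fold change was -0.31 (SE 0.236) in AngII against saline and in AngII+ETH against saline, with limma adjusted p of 0.728 and 0.780, and 0.00086 in AngII+ETH against AngII. Without saline replicates 4 and 6 the first pair of values was at 0.011 and 0.012. Red blood cells are rich in catalase, and the 5 red blood cell markers found of 6 listed had summed levels of 1290 to 4828 FPKM in saline, 1872 to 4444 in AngII and 2210 to 4833 in AngII+ETH, a part in the Cat levels that was not tested.

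**Figure D2:**
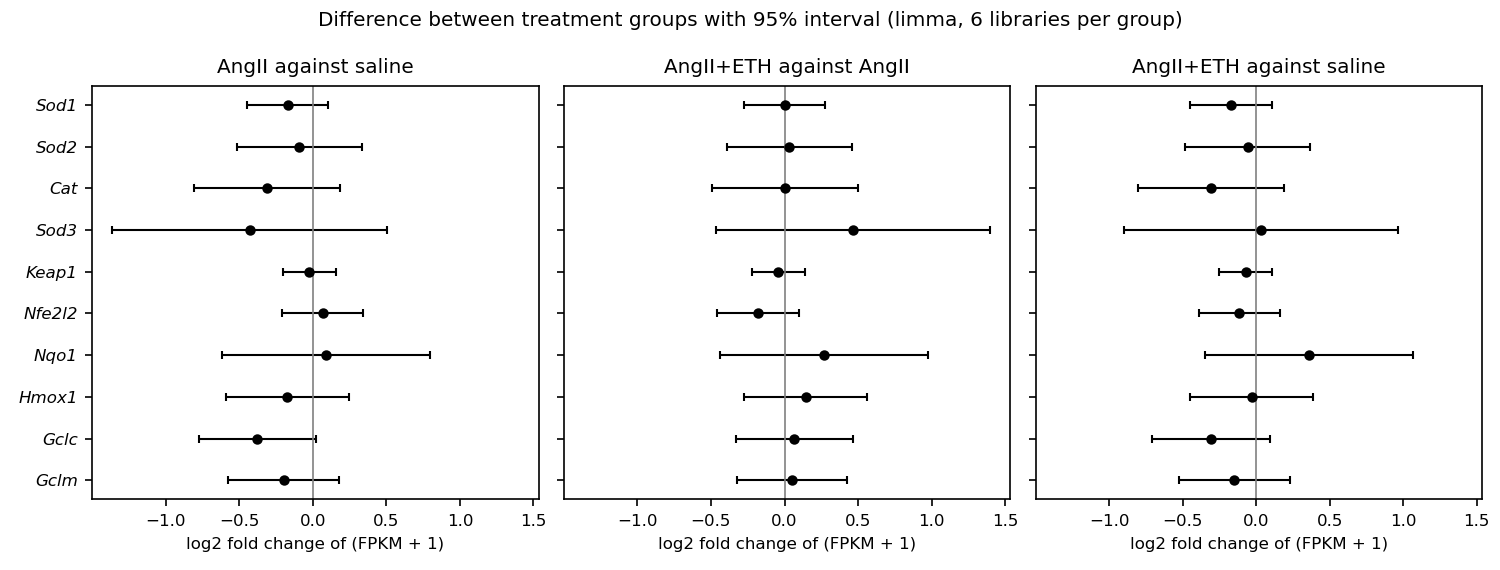
Log2 fold change of FPKM + 1 (horizontal axis) of each gene in the 3 comparisons, with its 95% interval from limma over 6 libraries per group. All 30 intervals include 0, and they are narrowest for Keap1 and widest for Sod3.

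Some of the genes followed the chamber make-up of the libraries. In a fit with treatment group, chamber marker level and adipocyte marker level together, chosen after the data had been seen, 4 of 10 genes had a slope on the chamber level with a limma adjusted p under 0.05, where 15.9% of all genes did. Positive slopes mean a higher level in libraries with more atrial than ventricular marker RNA. Of the 10 genes 3 had negative slopes past the threshold, against 3.56% of all genes, and 1 a positive slope, against 12.3%.

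Nqo1 had a slope of -0.099 log2 units per unit of chamber level (SE 0.0181, limma adjusted p = 0.00449), so it was lower where atrial markers were higher. Cat (-0.079, SE 0.0190, adjusted p = 0.0158) and Sod2 (-0.065, SE 0.0154, adjusted p = 0.0148) had slopes of the same sign. Hmox1 had a positive slope of 0.062 (SE 0.0141, limma adjusted p = 0.0118). Sod3 was at 0.075 (SE 0.0276, adjusted p = 0.0718) and Nfe2l2 at 0.033 (SE 0.0113, adjusted p = 0.0549), both short of the threshold. Gclc, at 0.029 (SE 0.0150, adjusted p = 0.189), also fell short. Keap1, at 0.0054, and Gclm, at -0.012, had slopes within their SE of 0.

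Whether these 4 slopes passed the threshold depended on the libraries at the ends of the chamber scale, while their sign did not. Without AngII replicate 5 alone, 0 of 10 slopes passed, and those of Nqo1, Sod2, Cat and Hmox1 were -0.064, -0.042, -0.083 and 0.054 with limma adjusted p of 0.101, 0.242, 0.101 and 0.143. Their unadjusted limma p were 0.00576, 0.0411, 0.00574 and 0.0121. The share of all genes that passed in that fit is not given here, so the count cannot be set against it. Without AngII replicate 3 Hmox1 was at 0.053 with an adjusted p of 0.0526. Without all 5 libraries with Myl7 or Myl2 under 10 FPKM, Sod2 passed (-0.15, SE 0.0317, adjusted p = 0.0389), while Nqo1 (-0.13), Cat (-0.079) and Hmox1 (0.063) kept their sign with adjusted p of 0.158, 0.458 and 0.492. The SE of Nqo1, Cat and Hmox1 was then 0.0516, 0.0628 and 0.0543, larger than over all 18 libraries. With saline replicates 4 and 6 left out, Sod3 (0.092) and Gclc (0.038) also passed, with adjusted p of 0.0203 and 0.0480.

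**Figure D3:**
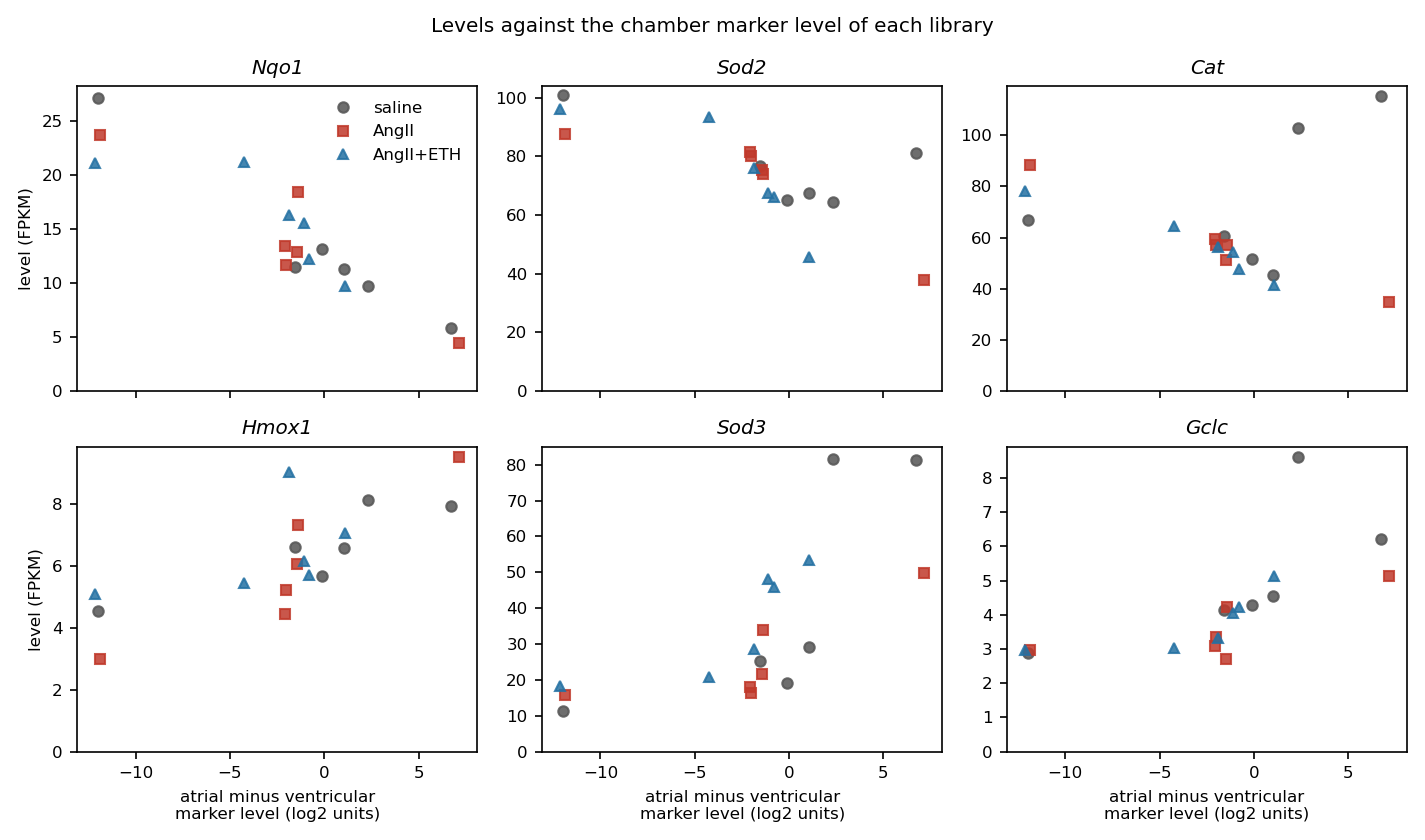
Level in FPKM (vertical axis, from 0) of 6 genes in each library against its atrial minus ventricular marker level in log2 units (horizontal axis), with treatment shown by colour and shape. Nqo1 and Sod2 are lower, and Hmox1, Sod3 and Gclc higher, toward the atrial end, and for Cat the saline replicates 4 and 6 lie apart from the rest at 103 and 115 FPKM. The slopes of Sod3 and Gclc over all 18 libraries did not pass the threshold.

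The adipocyte marker level, the mean log2 level of Adipoq, Plin1, Cidec, Cfd and Retn, had a slope past the threshold for 0 of 10 genes in limma, against 0.581% of all genes (0.573% with a positive slope). With an unadjusted p under 0.05, 4 of 10 had positive slopes, against 7.84% of all genes. Cat had the steepest of the 10, at 0.23 log2 units per unit (SE 0.0611, limma adjusted p = 0.134). The others were Sod3 (0.19, SE 0.0885), Gclm (0.14, SE 0.0537) and Sod1 (0.11, SE 0.0410). Without saline replicates 4 and 6 these slopes were 0.047, 0.0067, 0.035 and 0.0058, so they rested on these libraries. Without AngII+ETH replicate 3 the slope of Cat was 0.30 and passed, with an adjusted p of 0.0176.

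**Figure D4:**
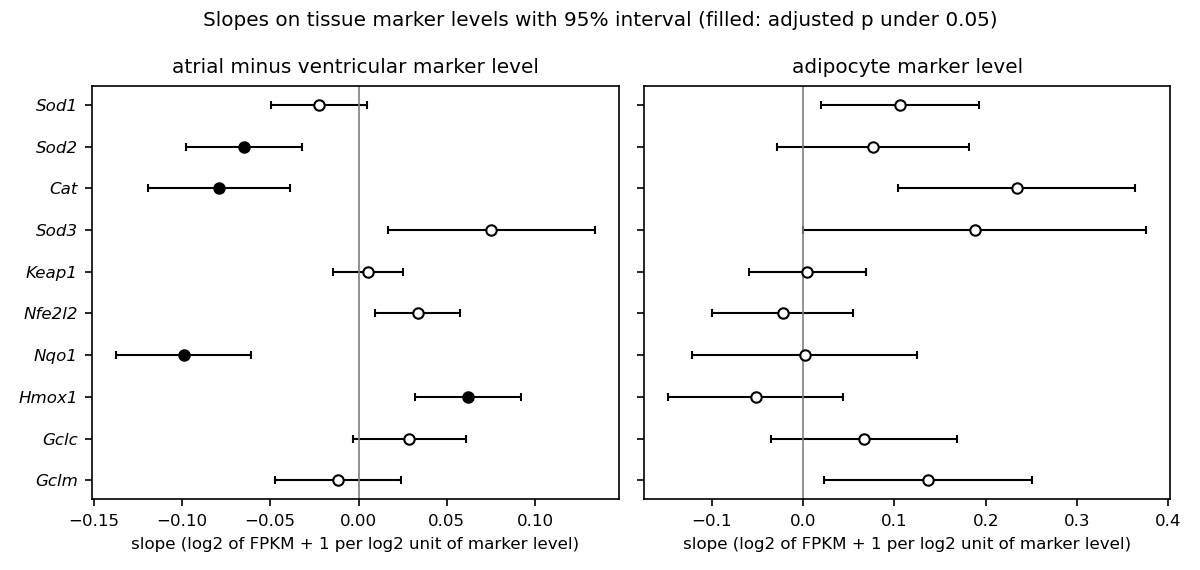
Slope of each gene's log2(FPKM + 1) on the chamber marker level (left) and the adipocyte marker level (right), with 95% intervals from a limma fit that also holds treatment. Filled points, adjusted p under 0.05, are Sod2, Cat, Nqo1 and Hmox1 on the left, and there are none on the right.

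**Figure D5:**
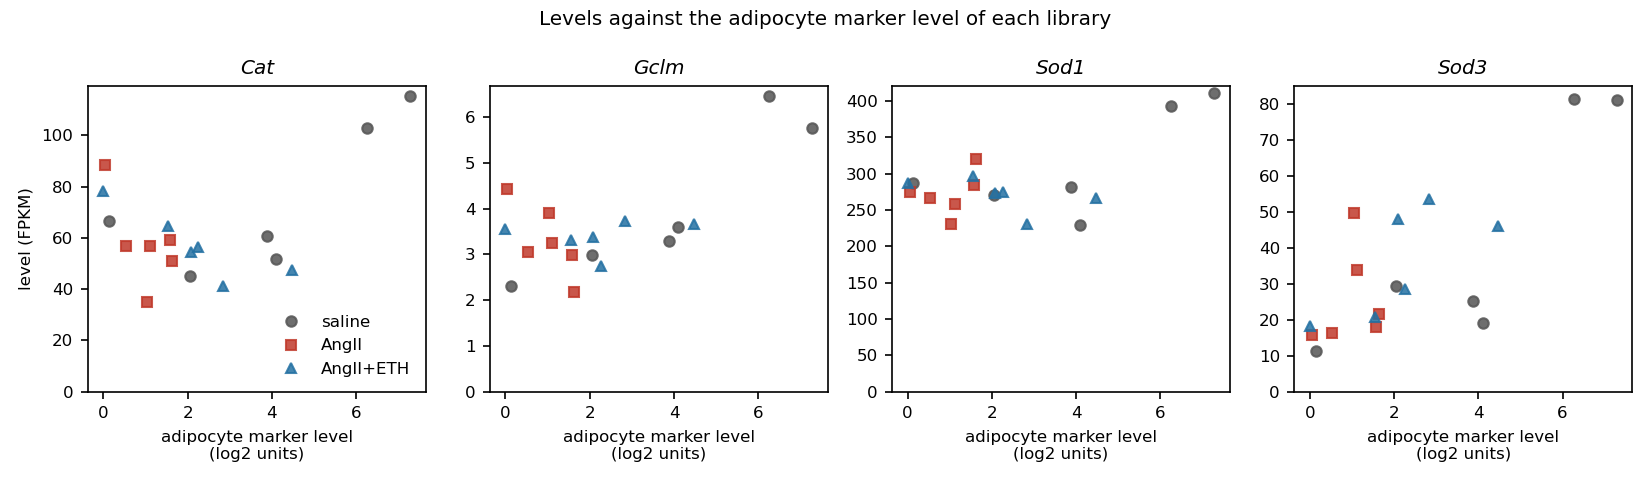
Level in FPKM (vertical axis, from 0) of Cat, Gclm, Sod1 and Sod3 in each library against its adipocyte marker level in log2 units (horizontal axis). Saline replicates 4 and 6 stand at the upper right in all 4 panels, with Cat at 103 and 115 FPKM there.

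Pairs of the 10 genes ran together or apart over the 18 libraries, which share tissue make-up as well as treatment. The highest Spearman rho between members was 0.849 for Hmox1 with Sod3, then 0.806 for Gclc with Sod3 and 0.707 for Sod1 with Cat. The ligase subunit genes Gclc and Gclm had 0.620. The lowest was -0.785 for Nqo1 with Gclc, both textbook NRF2 targets, and Nfe2l2 with Nqo1 had -0.756. Nfe2l2 and Keap1 had 0.065. These are descriptions of 18 libraries, with no test.

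Among the 11702 other genes tested, the nearest pattern to Nqo1 was that of Irx4, a ventricular transcription factor (Spearman rho 0.938 over 18 libraries), then that of Ptp4a3 (0.920). Irx4 was listed at 0 in saline replicate 6 and AngII replicate 5, where Nqo1 was at its lowest. Sod2 was nearest to Ndufa10, a complex I subunit gene (0.965), and Hsd17b10, a mitochondrial dehydrogenase gene (0.963). Sod3 was nearest to Ckb, brain-type creatine kinase (0.981), and Atp6v0e (0.971). Cat was nearest to Dgat2, a triglyceride synthesis enzyme (0.973), and Mcur1 (0.969). For Nfe2l2 the nearest were Lbr (0.936) and Smc3 (0.909), for Hmox1 Clta and Stk19 (0.917 each), for Gclc Rspry1 (0.957) and Stau1 (0.944), for Gclm Tomm70a (0.897), for Sod1 Pkm and Qdpr (0.934 each) and for Keap1 Anapc7 (0.893) and Mospd3 (0.882). These are the highest of 11702 values for each gene, and the libraries share tissue make-up.

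The wider pathway was followed with 80 other genes, of which 74 were in the files and 73 were tested. With limma 0 of 73 passed in any of the 3 comparisons. In AngII against saline 13 of 73 had an unadjusted p under 0.05 and were lower, where 5.78% of all genes were, and 1 was higher, where 3.28% were. Their median log2 fold change was -0.19, against -0.057 over all genes. With the same threshold 0 of 73 were higher or lower in AngII+ETH against AngII, where 1.26% and 0.649% of all genes were. For AngII+ETH against saline 8 were lower, where 4.01% of all genes were, and 0 higher, where 3.50% were. The counts for AngII against saline were 2 lower and 1 higher, with a median of -0.019, when saline replicates 4 and 6 were left out, where 1.86% of all genes were lower and 3.0% higher. For AngII+ETH against saline they were then 2 lower and 3 higher, where 1.87% and 4.15% of all genes were. With chamber and adipocyte covariates they were 0 lower and 1 higher (median 0.043) in the former, where 1.89% and 2.10% of all genes were, and 2 and 2 in the latter, where 2.45% of all genes were lower and 4.96% higher. In AngII+ETH against AngII that fit had 3 lower and 0 higher, where 1.11% and 2.73% of all genes were. There 51 of 73 were below 0, as were 45.1% of all genes, with a median of -0.084 against 0.017 over all genes.

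Enzymes that supply NADPH, the reducing power for glutathione and thioredoxin recycling, made up 6 of those 13. Me1, cytosolic malic enzyme, was 105 ± 104 FPKM in saline (SD, n = 6), 32.6 ± 5.82 in AngII and 35.98 ± 6.19 in AngII+ETH, with a log2 fold change of -1.19 in AngII against saline (SE 0.398, limma adjusted p = 0.488). Its saline levels were as high as 298 FPKM in replicate 6, with replicate 4 next, and 32.5 to 60.8 in the others. Tkt, transketolase, averaged 39.4 ± 43.6 FPKM in the saline libraries and 6.29 ± 1.86 in those of AngII, a log2 fold change of -1.76 (SE 0.609, adjusted p = 0.488), with levels of 104 and 86.5 FPKM in those saline libraries. The pentose phosphate enzymes G6pdx (-1.23, SE 0.477), Pgd (-1.23, SE 0.512) and Taldo1 (-0.91, SE 0.359) and the isocitrate dehydrogenase gene Idh1 (-0.74, SE 0.284) had values of the same sign. Idh2 was at 0.48 and Nnt was not among the genes summed. Without saline replicates 4 and 6 the list's median in AngII against saline was -0.20 in place of -1.19, and 2 of 7 members, Me1 (-0.44) and Taldo1 (-0.20), had an unadjusted p under 0.05 and were lower, as were 1.86% of all genes. With chamber and adipocyte covariates the median was 0.076 and 0 of 7 had one, where 1.89% of all genes were lower and 2.10% higher. In AngII+ETH against AngII the fit with both covariates had 7 of 7 below 0 (45.1% of all genes), with a median of -0.30. Of these Me1, at -0.53, had an unadjusted limma p of 0.0464 and an adjusted p of 0.998. The adipocyte level was itself lower in AngII than in saline, so treatment and adipocytes cannot be fully told apart in this fit. On the adipocyte level itself, Me1 (slope 0.49, limma adjusted p = 0.00672), Tkt (0.64, adjusted p = 0.0282) and G6pdx (0.38, adjusted p = 0.0378) passed. All 3 genes were highest in saline replicates 4 and 6, with G6pdx at 30.4 and 59.5 FPKM there. These libraries also had the highest smooth muscle sums (1420 and 1198 FPKM) and the lowest cardiomyocyte sums (2989 and 3906). The part of adipocytes in these slopes was not tested.

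Of the other lists, NRF2 control genes had 5 of 9 values above 0 in AngII against saline, with Bach1, a repressor that competes with NRF2 at Hmox1, at -0.24 (SE 0.0950, limma adjusted p = 0.50). Glutathione genes had 17 of 21 below 0 (median -0.19), among them the glutathione transferase gene Gstm4 at -0.24 (SE 0.0998, adjusted p = 0.519). Thioredoxin and peroxiredoxin genes had 12 of 15 below 0, with 0 of 15 at an unadjusted p under 0.05 in limma and 0 past the adjusted threshold. Quinone, carbonyl and xenobiotic genes had 8 of 11 below 0, with the aldehyde dehydrogenase gene Aldh2 at -0.54 (SE 0.207, adjusted p = 0.488) and the carbonyl reductase gene Cbr1 at -0.37 (SE 0.145, adjusted p = 0.488). Heme and iron genes had 6 of 7 and accessory genes of the dismutases 2 of 3 below 0. Over all genes 60.8% were below 0, and without saline replicates 4 and 6 the 73 genes had 39 below 0 and 34 above.

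For AngII+ETH against AngII the 10 wider genes with the smallest p had log2 fold changes of -0.33 to 0.26 and limma adjusted p of 1. They were Abcc1 (0.19), Gstm1 (-0.14), Gpx7 (0.26), Abcc4 (-0.27), Txn1 (0.16), Gsta4 (-0.11), Slc40a1 (-0.17), Glrx (-0.33), Srxn1 (0.18) and Oplah (0.26). Srxn1, sulfiredoxin, and Txn1, thioredoxin, are textbook NRF2 targets. Against saline, in the AngII+ETH group, Slc40a1, the iron exporter ferroportin, was at -0.48 (SE 0.158, limma adjusted p = 0.490). Blvra, the biliverdin reductase that acts after heme oxygenase, was at -0.52 (SE 0.189, adjusted p = 0.521), Gstp1 at -0.32 (SE 0.145, adjusted p = 0.654) and the small MAF gene Mafk at 0.49 (SE 0.237, adjusted p = 0.660). Tkt (-1.67), Me1 (-1.04), Taldo1 (-0.77), Cbr1 (-0.40), Aldh2 (-0.55) and Bach1 (-0.20) completed the 10 in that comparison. Without saline replicates 4 and 6, Tkt was at -0.67, Me1 at -0.30 and Taldo1 at -0.056. Cbr1 was 24.5 and 28.8 FPKM in those libraries and 14.8 to 17.2 in the other saline libraries. Aldh2 was 132 and 136 FPKM there, and 55.0 to 107 in the others.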

How the data were processed

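RNA was sequenced from 18 libraries of cardiac tissue, 6 per group, from total RNA depleted of ribosomal RNA per the labels' protocols. The authors deposited 1 value per transcript and library, taken here as FPKM from the values; TPM cannot be fully told apart from it, and which aligner, build and annotation were used is not given in the sources used here. Per the submitters' processing notes limma was used. Saline and AngII files list 30883 transcripts and AngII+ETH files 30036. Of the 28886 common to both, 8239 unnamed assembled ones were left out, and of 20647 Ensembl transcripts the 20478 with an entry in GENCODE M21 were added up to 12911 genes, of which 1171 have a transcript in 1 list only. No transcript of the 10 genes is in 1 list only. The files give no counts, so error comes from the spread between libraries, and fragment numbers are estimates that hold only if the unit is FPKM.

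Genes with a mean of at least 1 FPKM in a group were tested with limma 3.58.1 (R 4.3.3, trended prior) on log2(FPKM + 1) of the deposited FPKM, all 18 libraries in 1 fit, with Benjamini-Hochberg adjustment over 11703 genes. Fold changes on this scale understate changes of low genes. The script was tested on simulated data. Python 3.11.15 and pandas 2.3.3 made the sums and descriptions. The 10 genes, the other lists and the tests were chosen with earlier results of these data known. The text names the 10 genes, the 2 genes nearest to each in pattern (1 is not reported here) and, of the wider genes, those past a threshold and the 10 with the smallest p in each comparison. The fits without libraries with Adipoq above 100 FPKM, and the slope tests with their alternatives, were added after seeing the data. Other alternatives were the pseudocount, the filter, scaling, the intensity trend, transcripts used, groups in the fit, covariates, leaving out libraries with Myl7 or Myl2 under 10 FPKM and each library left out.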

Additional observations from a re-analysis of the deposited data

Results flagged for a closer look

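Of 30 sets of values, 10 genes in 3 groups of 6 libraries, 3 held a library whose gap to its nearest neighbour exceeded Dixon's 95% critical share of the group's range; chance gives about 1 in 20. Sod2 in AngII replicate 5 was the lowest of its group at 37.7 FPKM, next to 73.9, a ratio of 0.723. Nqo1 in saline replicate 5 was the highest of its group at 27.1 FPKM, next to 13.2, a ratio of 0.654. Nfe2l2 in AngII+ETH replicate 5 was the highest of its group at 22.9 FPKM, next to 19.0, a ratio of 0.648. Myl2 was 3.37 FPKM in AngII replicate 5 and Myl7 was listed at 0 in saline replicate 5; the part of chamber make-up in these gaps was not tested.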

How the results depend on the processing

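No member passed in any treatment comparison under any alternative run; the smallest limma adjusted p was 0.199, for Gclc in AngII against saline without saline replicate 5. Of 330 fold changes under alternatives other than leaving out 1 library, 39 turned sign, and of 540 with 1 library left out 37 did; the cause was not tested. No paired analysis was possible because the labels tie no library of 1 group to a library of another; replicate numbers follow only the order of the samples. In the following, values are log2 fold changes in AngII against saline, then AngII+ETH against AngII, then AngII+ETH against saline. With median-of-ratios scaling Keap1 was 0.031 in the first, Cat -0.020 in the second and Hmox1 0.0034 in the third. With quantile normalization these were 0.027, -0.036 and 0.012, with Sod2 at -0.018 in the second. With the chamber covariate Nqo1 was -0.042 in the first, Sod1 0.0017, Sod2 -0.025 and Cat -0.032 in the second, and Hmox1 0.10 in the third. With chamber and adipocyte covariates Nqo1 was -0.038, Gclm 0.19, Sod1 0.11, Sod2 0.047, Sod3 0.23 and Cat 0.28 in the first, Gclm -0.13, Sod2 -0.14 and Cat -0.38 in the second, and Hmox1 0.039 and Gclm 0.061 in the third. Without libraries with Myl7 or Myl2 under 10 FPKM, Nfe2l2 was -0.029, Keap1 0.021 and Sod2 0.18 in the first, and Sod2 -0.19 and Cat -0.097 in the second; the chamber slope of Gclm was 0.037 and adipocyte slopes of Keap1 and Nqo1 -0.022 and -0.034. Without libraries with Adipoq above 100 FPKM, Keap1 was 0.060, Nqo1 -0.20, Gclm 0.074, Sod1 0.025, Sod3 0.22 and Cat 0.011 in the first, and Keap1 0.016, Hmox1 0.11, Gclm 0.12, Sod1 0.025 and Cat 0.012 in the third; adipocyte slopes of Keap1 and Gclc were -0.058 and -0.0084.

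Over all genes, 1 passed in AngII against saline, against 2 with either other scaling, 2 without the libraries of either kind named, 5 with the chamber covariate, and 0 with both covariates or only the 2 groups in the fit. In AngII+ETH against saline 1 passed, against 21 with every transcript of each file, 2 with both covariates, 2 without the libraries of either kind and 0 with only the 2 groups. With every transcript of each file, those absent from a group's list were set to 0 in its libraries. The 21 therefore cannot be told apart from the difference between the lists. In AngII+ETH against AngII 0 passed (limma, with 224 genes at an unadjusted p under 0.05), against 1 without libraries with low Myl7 or Myl2. The chamber slope passed for 4 members, and for 1 without those libraries. For slopes, the share of all genes that passed in fits with libraries left out is not given here. With 1 library left out in turn, genes passing ranged from 0 to 11 in AngII against saline and 0 to 8 in AngII+ETH against saline, and members passing from 0 to 6 for the chamber slope and 0 to 1 for the adipocyte slope. Fold changes then ranged in AngII against saline from -0.085 to 0.016 for Keap1, -0.021 to 0.12 for Nfe2l2, -0.091 to 0.36 for Nqo1 and -0.15 to 0.085 for Sod2. For AngII+ETH against AngII they ranged from -0.033 to 0.12 for Gclm, -0.046 to 0.047 for Sod1, -0.13 to 0.13 for Cat, -0.0015 to 0.28 for Hmox1, -0.14 to 0.16 for Sod2 and -0.0076 to 0.16 for Gclc. For AngII+ETH against saline they ranged from -0.25 to 0.30 for Sod3, -0.12 to 0.027 for Hmox1 and -0.14 to 0.072 for Sod2. Slopes ranged from -0.014 to 0.025 for Keap1 and -0.078 to 0.026 for Nqo1 on the adipocyte level, and -0.036 to 0.010 for Gclm on the chamber level.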

Other observations

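Among the 73 other pathway genes, 14 had a chamber slope with a limma adjusted p under 0.05, 6 positive and 8 negative, where 12.3% and 3.56% of all genes did. Gpx3, the secreted glutathione peroxidase, had a slope of 0.21 log2 units per unit (adjusted p = 0.00372), and Ugdh, a UDP-glucuronate synthesis enzyme, 0.094 (limma adjusted p = 0.0105). The other positive slopes were those of Gpx8 (0.085), the epoxide hydrolase gene Ephx1 (0.063), the peroxiredoxin gene Prdx4 (0.059) and Gpx7 (0.049). Gsto1, an omega-class glutathione transferase, was at -0.11 (limma adjusted p = 0.00467) and Idh2, the mitochondrial isocitrate dehydrogenase, at -0.075 (adjusted p = 0.00474). The other negative slopes were those of Mgst3 (-0.069), Prdx6 (-0.058), Prdx3 (-0.055), Slc40a1 (-0.051), the mitochondrial thioredoxin reductase gene Txnrd2 (-0.049) and the constitutive heme oxygenase gene Hmox2 (-0.048). The limma adjusted p of these 10 other genes ran from 0.00694 for Gpx8 to 0.0476 for Txnrd2. On the adipocyte level 5 of 73 passed, all positive, where 0.573% of all genes did, with Mgst1, a microsomal glutathione transferase, at 0.32 (limma adjusted p = 0.00252) and Gsta3 at 0.33 (adjusted p = 0.0460) beside Me1, Tkt and G6pdx. How the slopes of these other genes change with libraries left out is not given here. For the 10 genes, which slopes passed did change.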
